A study of Mus musculus with 8 samples.

Results

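The genes described here are 35 genes that fold proteins in the endoplasmic reticulum (ER), sense unfolded protein there, or remove it. They were chosen as a list by name and found in the deposited count table of 55573 mouse genes by symbol, and all 35 were found; Ero1l and Ero1lb are the genes now called Ero1a and Ero1b. RNA was sequenced from hearts of 24-week-old male mice of the C57BLKS/J strain, in 4 libraries of db/m and 4 of db/db genotype. The db/db mouse is homozygous for a mutation of the leptin receptor gene and becomes obese and diabetic, and the db/m heterozygote on the same background is its non-diabetic control. The mutation is in every cell of the animal, and no treatment is named for either group. Total counts per library ran from 19541757 to 22249911.

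Proteins that enter the ER are threaded through the Sec61 channel, folded by chaperones of the HSP70 and HSP90 families and by lectin chaperones, and cross-linked by disulfide isomerases. When unfolded protein accumulates, the sensors IRE1 (gene Ern1), PERK (gene Eif2ak3) and ATF6 start the unfolded protein response, in which cleaved ATF6 and the spliced form of XBP1 switch on chaperone and degradation genes. Protein that cannot be folded is passed back to the cytosol and destroyed by ER-associated degradation (ERAD), and in heart muscle the same membrane system also stores calcium.

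All 10 listed cardiomyocyte markers were detected, with a summed level of 32770 to 42070 CPM (counts relative to the scaled size of the library) per library. Genes of fat and of atrial muscle set 2 control libraries apart: summed adipocyte markers had 549 and 1830 CPM in db/m replicates 1 and 3 against 25.3 to 39.3 in the other 6 libraries, and summed atrial markers had 1632 and 3887 against at most 118. In db/m replicate 3 longer genes also stood higher (Spearman's rho across 17411 genes of 0.439 between gene length and the difference from the other db/m libraries; genes are not independent replicates). Values without 1 or both of these libraries stand beside many of the results. Whether each library came from its own animal is not stated in the labels, and p-values here reflect only how far these samples scatter, part of which may be technical.

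The promoters of several members carry a known control element. ATF6 binds, with the factor NF-Y, to the ER stress response element (ERSE), CCAAT and CCACG with 9 bases of any kind between them, and to a second form (ERSE-II), ATTGG and CCACG with 1 base between them; XBP1 and ATF6 also bind the letters TGACGTGG (UPRE). All 3 were searched on both strands in windows of 250 bases before to 50 after each RefSeq start (GRCm38.p6). CCACG is part of both ERSE forms, and read on the other strand it overlaps the letters of UPRE. Windows were held for 30 of the 35 members. ERSE was found in 10 of these 30, in 11 places, against 0.119% of all 32851 windows. ERSE-II was found in 2 of 30, Herpud1 and Dnajb11, against 0.037% of all windows, and UPRE in 1, Vcp, against 0.676%. The ERSE-II of Dnajb11 lay after the start, and all other elements found in members lay before it. These are matches of letters, not measured binding.

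Shown is the stretch just before the start of the 5 members with an ERSE and an unadjusted p under 0.05 (Hspa5, Hsp90b1, Calr, Pdia6, Dnajc3), of Canx and Syvn1, which carry an ERSE and had a higher p, and of Herpud1, the member with the smallest p among those with a positive change. Capitals mark the elements, each sequence runs 5′ to 3′ on the strand of its gene, and all come from RefSeq. The stretches are chr2:34771875-34772089 on the plus strand for Hspa5, chr10:86705445-86705659 on the minus strand for Hsp90b1, chr8:84846932-84847146 on the minus strand for Calr, chr12:17266374-17266588 on the plus strand for Pdia6, chr14:118937717-118937931 on the plus strand for Dnajc3, chr11:50325674-50325888 on the minus strand for Canx, chr19:6046361-6046575 on the plus strand for Syvn1 and chr8:94386214-94386428 on the plus strand for Herpud1.
Hspa5: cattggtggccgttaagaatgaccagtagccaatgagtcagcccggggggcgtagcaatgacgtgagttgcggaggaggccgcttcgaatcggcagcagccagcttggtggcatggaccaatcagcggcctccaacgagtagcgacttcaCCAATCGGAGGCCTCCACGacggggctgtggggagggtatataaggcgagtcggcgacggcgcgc
Hsp90b1: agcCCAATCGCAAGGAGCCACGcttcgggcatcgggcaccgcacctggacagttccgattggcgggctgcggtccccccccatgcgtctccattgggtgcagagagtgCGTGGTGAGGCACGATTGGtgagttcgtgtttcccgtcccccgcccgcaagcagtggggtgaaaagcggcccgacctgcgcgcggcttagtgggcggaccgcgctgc
Calr: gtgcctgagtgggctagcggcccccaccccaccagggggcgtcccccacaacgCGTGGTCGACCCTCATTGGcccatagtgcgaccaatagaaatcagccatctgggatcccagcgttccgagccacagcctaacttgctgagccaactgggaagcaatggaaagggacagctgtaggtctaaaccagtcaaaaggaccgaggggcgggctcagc
Pdia6: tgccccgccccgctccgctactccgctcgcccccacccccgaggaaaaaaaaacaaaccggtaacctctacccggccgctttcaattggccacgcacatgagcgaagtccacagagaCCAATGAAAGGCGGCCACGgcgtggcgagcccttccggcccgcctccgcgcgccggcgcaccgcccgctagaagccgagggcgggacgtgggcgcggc
Dnajc3: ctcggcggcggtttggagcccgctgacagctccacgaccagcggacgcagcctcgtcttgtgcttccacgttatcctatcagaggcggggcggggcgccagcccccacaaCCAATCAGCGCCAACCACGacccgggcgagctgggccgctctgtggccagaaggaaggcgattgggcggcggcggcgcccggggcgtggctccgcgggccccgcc
Canx: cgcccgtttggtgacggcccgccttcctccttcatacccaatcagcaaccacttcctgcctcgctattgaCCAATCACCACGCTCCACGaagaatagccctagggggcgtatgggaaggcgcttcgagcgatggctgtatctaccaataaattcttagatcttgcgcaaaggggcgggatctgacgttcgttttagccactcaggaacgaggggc
Syvn1: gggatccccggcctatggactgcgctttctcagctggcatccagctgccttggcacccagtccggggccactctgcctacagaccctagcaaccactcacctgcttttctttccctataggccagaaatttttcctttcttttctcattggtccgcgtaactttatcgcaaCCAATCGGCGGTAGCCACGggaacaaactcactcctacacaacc
Herpud1: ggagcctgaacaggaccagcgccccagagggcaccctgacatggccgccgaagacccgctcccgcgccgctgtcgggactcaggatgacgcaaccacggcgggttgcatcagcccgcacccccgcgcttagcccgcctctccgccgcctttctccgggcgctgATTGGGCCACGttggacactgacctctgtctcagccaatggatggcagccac
In Hspa5 the ERSE lay 65 to 47 bases before the start, in Pdia6 98 to 80, in Dnajc3 105 to 87, in Canx 145 to 127 and in Syvn1 44 to 26. The ERSE of Calr, 162 to 144 bases before the start, was on the opposite strand. Hsp90b1 held an element on each strand, 212 to 194 and 107 to 89 bases before the start. The ERSE-II of Herpud1 lay 52 to 42 bases before the start.

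Levels per length, as CPM per kilobase of merged exons, differed widely among the members. Hspa5, the ER HSP70 chaperone BiP, was highest, with 175 ± 44.1 (SD, n = 4) in db/m and 129.7 ± 16.1 in db/db. P4hb, a protein disulfide isomerase, had 93.2 ± 7.05 and 82.6 ± 6.42, and Calr, the lectin chaperone calreticulin, had 97.1 ± 13.1 and 74.2 ± 6.35. Herpud1, an ER membrane protein that helps assemble the ERAD complex, had 60.2 ± 9.43 and 94.7 ± 16.6, and Canx, the membrane-bound lectin chaperone calnexin, had 69.8 ± 9.89 and 62.6 ± 4.998. By the mean over all 8 libraries P4hb (87.9) and Calr (85.7) were neighbours closer than their spread, while Hspa5 (152) stood apart. At the other end were Pdia5 (0.611), Sec61b (0.531) and Derl3 (0.142). Derl3, a derlin, had 2 to 9 counts per library and was the 1 member too low to be tested. The sensor genes differed in level, with Atf6 at 23.0, Ern1 at 3.79 and Eif2ak3 at 2.96 CPM per kilobase.

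**Figure D1:**
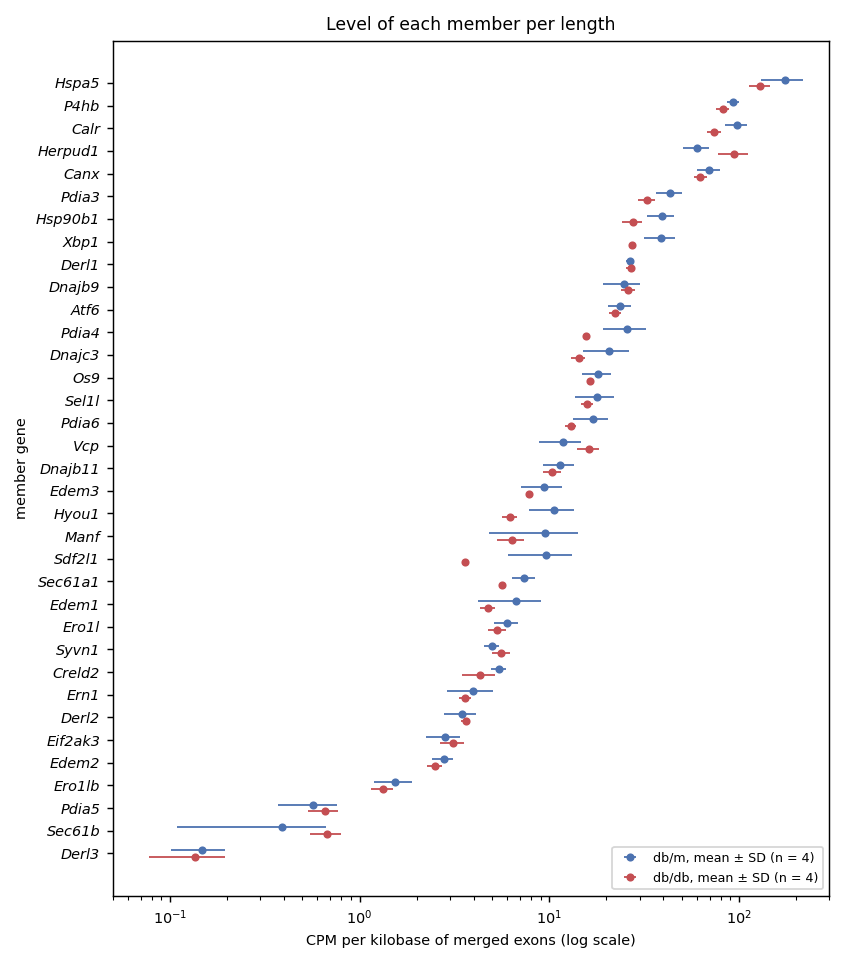
Level of each of the 35 members as CPM per kilobase of merged exons on a log axis, with points and bars for the mean and SD of 4 db/m and 4 db/db libraries. Hspa5 is at the top with a mean of 152, and Derl3 at the bottom with 0.142.

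The comparison of genotypes asks how these genes differ in the diabetic heart. Chaperone and disulfide isomerase genes were mostly lower in db/db, genes of ERAD were divided, and the intervals of the 3 sensors included 0. The folding gene with the largest change was Sdf2l1 (2.68-fold lower), followed by Hyou1 (1.71-fold) and Pdia4 (1.65-fold), while Herpud1 was 1.57-fold higher. With edgeR and Benjamini-Hochberg adjusted p-values, 0 of the 34 members tested passed an adjusted p of 0.05, where 0.00574% of the 17411 genes did (0 higher, 1 lower). At an unadjusted p under 0.05, 11 members were lower and 2 higher of 34, against 7.84% and 5.12% of all genes. DESeq2, the other count test, called 4 members by its adjusted p, with Sdf2l1 (0.00132), Pdia4 (0.0191) and Hyou1 (0.0306) lower and Herpud1 (0.0218) higher, against 1.12% of all genes lower and 1.09% higher. Limma-voom, run with a quality weight for each library, called 0 members (0.414% of all genes higher and 0.333% lower). By that fit 10 were lower and 1 higher at an unadjusted p under 0.05, against 7.27% and 6.89% of all genes.

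The 4 libraries of each genotype did not overlap in 7 members. Sdf2l1, Hyou1, Calr, Pdia4, Xbp1 and Sec61a1 were lower in every db/db library than in any db/m library, and Herpud1 was higher; of all genes 4.61% were separated downward and 5.04% upward. The median log2 fold change (db/db over db/m) of the 34 members was -0.17 against -0.019 for all genes. Of the 34, 25 were negative and 9 positive, against 52.3% and 47.7% of all genes. Leaving out db/m replicates 1 and 3 gave a median of -0.079, and 24 of 34 were negative against 49.6% of all genes. In that fit edgeR called 0 members (0.256% of all genes), and 9 were lower and 1 higher at an unadjusted p under 0.05, against 5.04% and 5.63%. Without db/m replicate 3 alone edgeR called 0 members where it called 0.6% of all genes, and 12 were lower and 2 higher at an unadjusted p under 0.05, against 6.34% and 6.84%. The labels name the tissue only as heart, and the atrial markers above differed among the libraries. Since each library mixes many cell types, fewer cells of a type and less RNA per cell cannot be told apart.

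**Figure D2:**
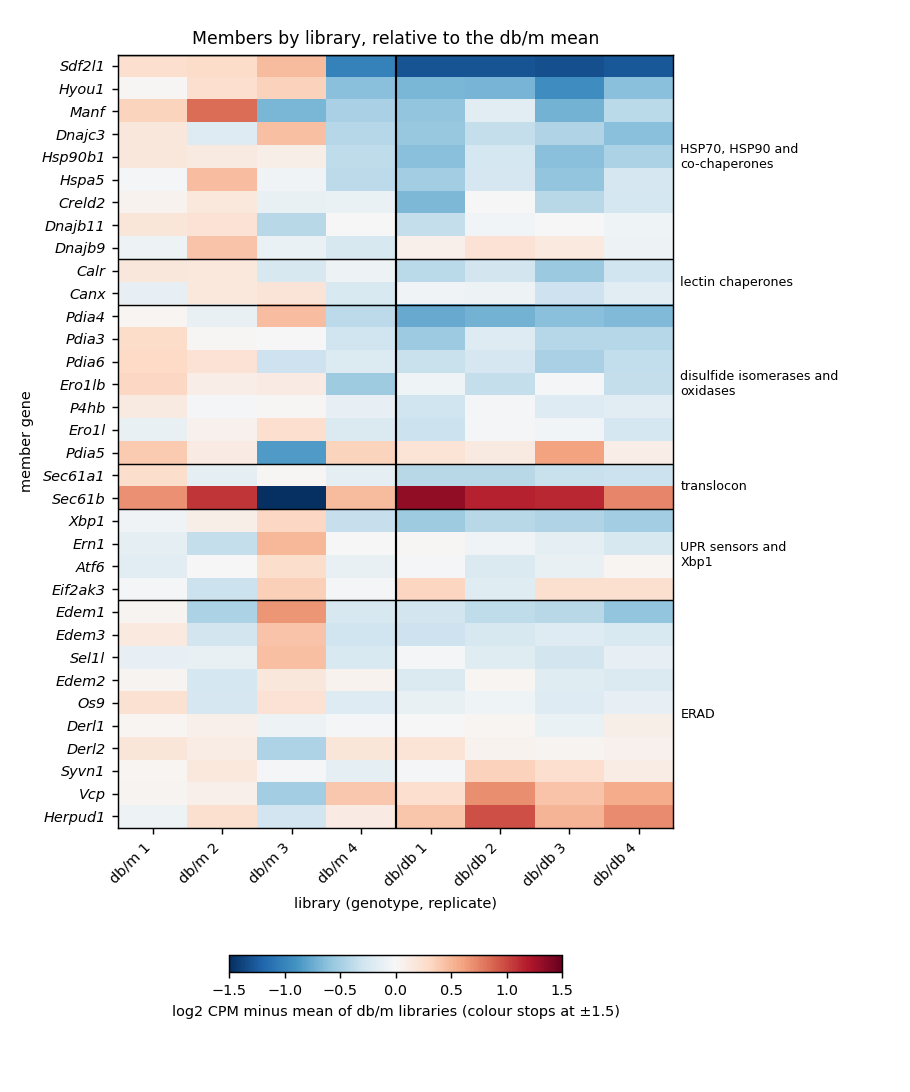
Log2 CPM of each of the 34 members tested (rows, by role and fold change) in each of the 8 libraries (columns), as the difference from the mean of the db/m libraries. The chaperone rows at the top are mostly blue in db/db and in db/m replicate 4, and Vcp and Herpud1 at the bottom are red in db/db.

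The HSP70 and HSP90 chaperones and their helpers were the role with the lowest median, -0.51 over 9 genes. Of these 8 were negative and 5 lower at an unadjusted p under 0.05, against 52.3% and 7.84% of all genes. Without db/m replicates 1 and 3 their median was -0.39, with 4 lower at an unadjusted p under 0.05, against 5.04% of all genes. Their mean level was 5.90, 6.07, 5.78 and 5.37 log2 CPM in db/m replicates 1 to 4 and 5.20, 5.46, 5.23 and 5.33 in the db/db libraries in the same order. Replicates 1 to 3 of db/m thus lay above all db/db libraries, and db/m replicate 4 lay among them.

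Sdf2l1 (ENSMUSG00000022769, chromosome 16, 17130138 to 17132383, mm10), a partner of ER DnaJ proteins in the BiP folding cycle, had 11.9, 12.1, 13.9 and 4.89 CPM in db/m replicates 1 to 4. In db/db it had 3.98, 3.99, 3.92 and 4.06 CPM. The db/db values lay within a narrow band, and db/m replicate 4 was just above it while the other db/m libraries were far higher. The log2 fold change was -1.42 (SE 0.29; edgeR, Benjamini-Hochberg adjusted p = 0.140). Without db/m replicate 4 it was -1.65, the single case in which edgeR called a member after leaving out 1 library (adjusted p = 0.0450; 0.0710 to 0.435 without any other 1).

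Hyou1 (ENSMUSG00000032115, chromosome 9, 44379490 to 44392369), a large HSP70 relative that renews the nucleotide on BiP, had 75.5, 89.1, 94.96 and 48.4 CPM in db/m and 46.4, 46.0, 39.1 and 48.2 in db/db. The groups were separated by the small gap between db/m replicate 4 and db/db replicate 4, and its log2 fold change was -0.78 (SE 0.20; edgeR, Benjamini-Hochberg adjusted p = 0.224). Hsp90b1 (ENSMUSG00000020048, chromosome 10, 86690209 to 86705509), the ER HSP90 chaperone GRP94, had 176, 170.5, 165 and 119 CPM in db/m and 101, 130.3, 101 and 112 in db/db. Here db/db replicate 2 exceeded db/m replicate 4, and the change was -0.51 (SE 0.16; edgeR, Benjamini-Hochberg adjusted p = 0.293). An antisense transcript and 2 small genes overlap Hsp90b1 exons, the antisense one over 10.3% of its length, and strand use in counting is not given in the sources used here.

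Hspa5 (ENSMUSG00000026864, chromosome 2, 34771970 to 34777547), which binds unfolded chains and holds the sensors inactive, had 707, 998, 699 and 552 CPM in db/m and 502, 608, 479 and 606 in db/db. The 2 genotypes overlapped through db/m replicate 4, and db/m replicate 2 was the highest library. Its log2 fold change of -0.43 (SE 0.19; edgeR, Benjamini-Hochberg adjusted p = 0.381) was -0.25 without db/m replicate 2. Dnajc3, a DnaJ co-chaperone that also inhibits PERK, had 117, 90.4, 142 and 77.3 CPM in db/m and 70.1, 80.9, 75.6 and 67.0 in db/db. All db/db libraries but replicate 2 were below every db/m library, and the change of -0.54 (SE 0.19) was -0.20 without db/m replicates 1 and 3.

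The other helpers had intervals that included 0. Manf, a secreted ER stress protein, had 38.5, 55.0, 18.9 and 21.8 CPM in db/m and 18.7 to 27.1 in db/db, so that its change of -0.59 (SE 0.31) rested on db/m replicates 1 and 2 and was -0.24 without replicate 2. Manf exons overlap those of Dcaf1, Rbm15b and a non-coding gene, over 4.1%, 0.4% and 4.7% of the length of Manf. The 2 named ones hold more counts than Manf. Creld2, another ER stress protein, had -0.33 (SE 0.19), Dnajb11 -0.13 (SE 0.16; -0.23 without db/m replicates 1 and 3) and Dnajb9 0.070 (SE 0.16). Dnajb11 and Dnajb9 are DnaJ co-chaperones of BiP, the latter a known target of XBP1, and 95% intervals of their changes ran from -0.48 to 0.23 and from -0.28 to 0.42. The sign of Dnajb9 turned negative (-0.043) without db/m replicates 1 and 3 and (-0.0065) with each library's trend on gene length removed.

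**Figure D3:**
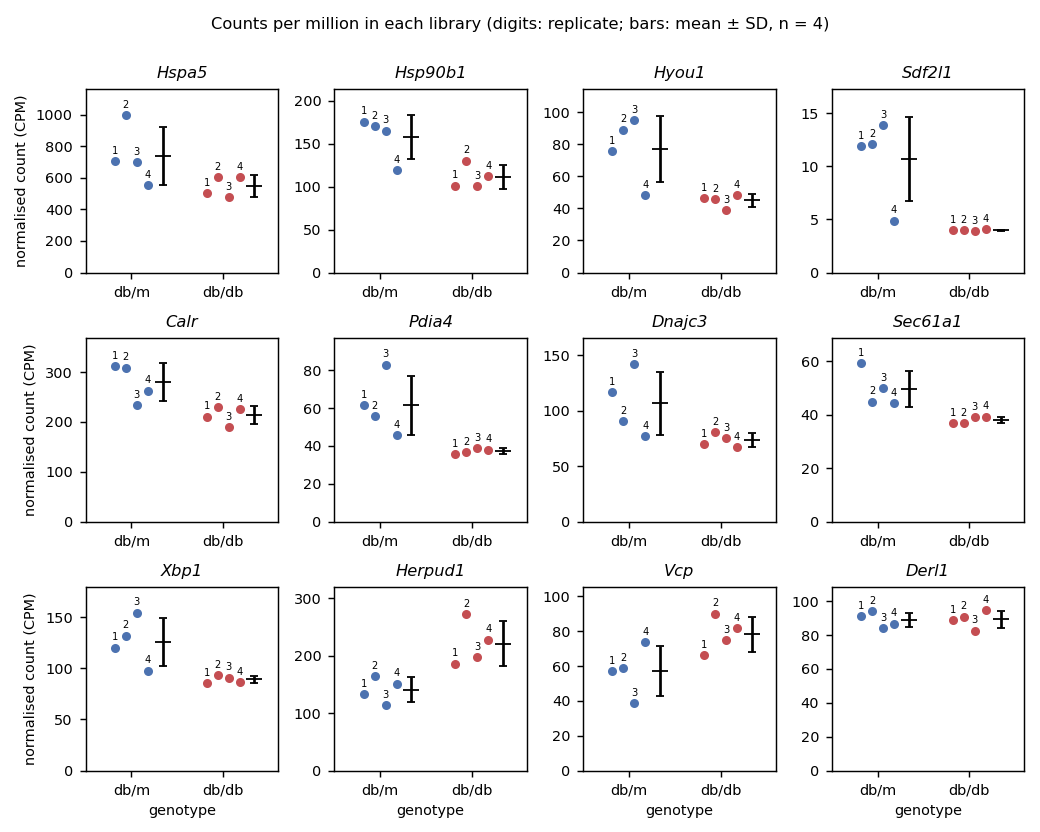
CPM of 12 members in each library, with digits for the replicate and bars for the mean and SD of 4 libraries. In Sdf2l1 the db/db libraries lie between 3.92 and 4.06 and db/m replicate 4 at 4.89, and in Herpud1 all db/db libraries lie above 164.

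Both lectin chaperones, which hold glycoproteins while they fold, had lower means in db/db. Calr (ENSMUSG00000003814, chromosome 8, 84841850 to 84846934) had 313, 309, 234 and 263 CPM in db/m and 211, 229, 189 and 226 in db/db. Its groups did not overlap, and the log2 fold change was -0.39 (SE 0.14; edgeR, Benjamini-Hochberg adjusted p = 0.321). Canx had 278 to 371 CPM in db/m and 262 to 314 in db/db, which overlap, with a change of -0.16 (SE 0.14).

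Of 7 disulfide isomerases and oxidases, which make and rearrange disulfide bonds, 6 were negative and 3 were lower at an unadjusted p under 0.05. The shares over all genes were 52.3% and 7.84%. The median of the 7 was -0.22. It was -0.10 when db/m replicates 1 and 3 were left out, with 2 lower, against 5.04% of all genes. Pdia4 (ENSMUSG00000025823, chromosome 6, 47796141 to 47813430) had 61.6, 55.8, 83.0 and 45.9 CPM in db/m and 35.6, 36.8, 38.8 and 38.05 in db/db. All db/m libraries were higher, and the spread among db/db libraries (SD 1.40) was small beside that among db/m (SD 15.7). The log2 fold change was -0.72 (SE 0.17; edgeR, Benjamini-Hochberg adjusted p = 0.199). Leaving out db/m replicates 1 and 3 gave -0.45. Pdia3, the isomerase that works with the lectin chaperones, had 163, 136, 135 and 109 CPM in db/m and 92.4 to 118 in db/db. Its change of -0.41 (SE 0.15) was -0.27 without both libraries, and db/db replicate 2 lay above db/m replicate 4.

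Pdia6 had 76.8, 72.8, 50.3 and 54.1 CPM in db/m and 49.5, 52.6, 44.4 and 48.3 in db/db, a change of -0.38 (SE 0.16) with overlap at db/m replicate 3. P4hb, which is also the shared subunit of the collagen prolyl hydroxylases, had 244 to 293 CPM in db/m and 216 to 260.3 in db/db (-0.17, SE 0.12; -0.10 without db/m replicates 1 and 3). The oxidases Ero1l and Ero1lb, which recharge the isomerases, had -0.16 (SE 0.14) and -0.22 (SE 0.20), which were -0.092 and -0.016 without both libraries. Pdia5, at 0.786 to 1.98 CPM in db/m and 1.601 to 2.30 in db/db, had 0.21 (SE 0.34), or -0.0043 without db/m replicate 3 and 0.041 without replicates 1 and 3.

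At the translocon, Sec61a1, the channel subunit, had 59.2, 44.9, 49.8 and 44.4 CPM in db/m and 36.9, 36.8, 38.9 and 39.3 in db/db. The genotypes did not overlap, with a log2 fold change of -0.38 (SE 0.12; edgeR, Benjamini-Hochberg adjusted p = 0.297), which was -0.24 without db/m replicates 1 and 3. Sec61b, the small accessory subunit, had 0 to 0.835 CPM in db/m and 0.640 to 1.02 in db/db. Pseudogenes near-identical to it (Gm33666 and Gm5870) held 546 and 306 counts against 111 for the gene, so its value of 0.81 (SE 0.71) is uncertain. For Sec61b the change was 0.10 (SE 0.35) with these counts added, and 0.33 without db/m replicates 1 and 3.

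Xbp1 (ENSMUSG00000020484, chromosome 11, 5520659 to 5525893), whose mRNA IRE1 splices, had 120.1, 132, 154 and 97.8 CPM in db/m and 85.7, 93.5, 90.9 and 86.8 in db/db. The db/db libraries were all lower and close together, and the log2 fold change was -0.50 (SE 0.15; edgeR, Benjamini-Hochberg adjusted p = 0.272). Counts per gene do not separate the spliced from the unspliced form, so these values do not measure IRE1 activity. Among the sensors, Atf6 had 193, 218, 261 and 201 CPM in db/m and 212, 187, 200.4 and 222 in db/db. These ranges overlap almost wholly, with a change of -0.090 and a 95% interval of -0.39 to 0.21, or -0.038 without db/m replicates 1 and 3.

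Ern1 had 28.5, 24.6, 44.7 and 31.9 CPM in db/m and 32.0, 30.5, 28.7 and 26.7 in db/db. Only db/m replicate 3 stood out, and the change was -0.14 (interval -0.54 to 0.27), or 0.063 without that library. Eif2ak3 had 16.5, 13.3, 21.5 and 16.4 CPM in db/m and 20.9, 14.7, 19.7 and 19.8 in db/db, with 0.15 (interval -0.25 to 0.55) and 0.33 without db/m replicates 1 and 3. Sensor changes were therefore not detectable at this spread, and the intervals allow differences of up to about 0.5 on the log2 scale. Activation of the sensors is a matter of protein state, which RNA counts do not show.

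Herpud1 (ENSMUSG00000031770, chromosome 8, 94386438 to 94395377) was the ERAD gene with the clearest difference. It had 132, 164, 114 and 151 CPM in db/m and 186, 273, 197 and 228 in db/db. Every db/db library was higher than every db/m library, with a log2 fold change of 0.65 (SE 0.17; edgeR, Benjamini-Hochberg adjusted p = 0.224). The change was 0.54 to 0.74 with any 1 library left out and 0.48 without db/m replicates 1 and 3. Of the 10 ERAD genes tested, 5 were positive and 5 negative, against 47.7% and 52.3% of all genes, with a median of -0.066. At an unadjusted p under 0.05, 2 were higher and 0 lower, against 5.12% and 7.84% of all genes. Without db/m replicates 1 and 3 the ERAD median turned to 0.025. In that fit 4 of 10 were negative and 1 higher at an unadjusted p under 0.05, against 49.6% and 5.63%.

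The second was Vcp (chromosome 4, 42979963 to 43000507), the ATPase that pulls ERAD substrates from the membrane. It had 57.0, 58.9, 38.7 and 73.7 CPM in db/m and 66.3, 90.0, 74.8 and 81.8 in db/db, overlapping at db/m replicate 4. Its change was 0.46 (SE 0.19), and 0.23 without db/m replicates 1 and 3. The value is uncertain, because the pseudogene Vcp-rs, 99.05% identical, held 105955 counts against 11290 for Vcp. With these counts added to Vcp the change was 0.19 (SE 0.12; edgeR, Benjamini-Hochberg adjusted p = 0.502).

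The ERAD ligase core did not separate by genotype. Sel1l, the adaptor of the ligase, had 138, 139, 206 and 128 CPM in db/m and 148, 132, 124 and 138 in db/db. The library of db/m replicate 3 alone was high, and the change of -0.18 (SE 0.16) was 0.0082 without it. Syvn1, the ubiquitin ligase HRD1, had 21.7 to 26.9 CPM in db/m and 23.6 to 30.5 in db/db (0.17, SE 0.13).

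Among the EDEM proteins, which trim and pick out misfolded glycoproteins, Edem1 had 42.3, 29.5, 65.1 and 34.6 CPM in db/m and 27.2 to 33.9 in db/db. Its change of -0.48 (SE 0.22) was -0.20 without db/m replicate 3 and -0.067 without replicates 1 and 3. Edem3 had -0.27 (SE 0.17; 0.037 without both), and Edem2 -0.15 (SE 0.16; -0.050 without both). Os9, a lectin that delivers glycoproteins to the ligase, had -0.14 (SE 0.14) and 0.097 without both. The derlins, membrane proteins of the exit channel, had intervals that included 0. Derl1 had 84.2 to 94.0 CPM in db/m and 82.7 to 94.7 in db/db (0.0051, interval -0.23 to 0.24; -0.024 without db/m replicates 1 and 3), and Derl2 had 0.069 (interval -0.28 to 0.42; -0.058 without db/m replicate 3). A pseudogene of Derl1, Gm35638, held 7847 counts against 15008, and with them added the change was -0.077.

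**Figure D4:**
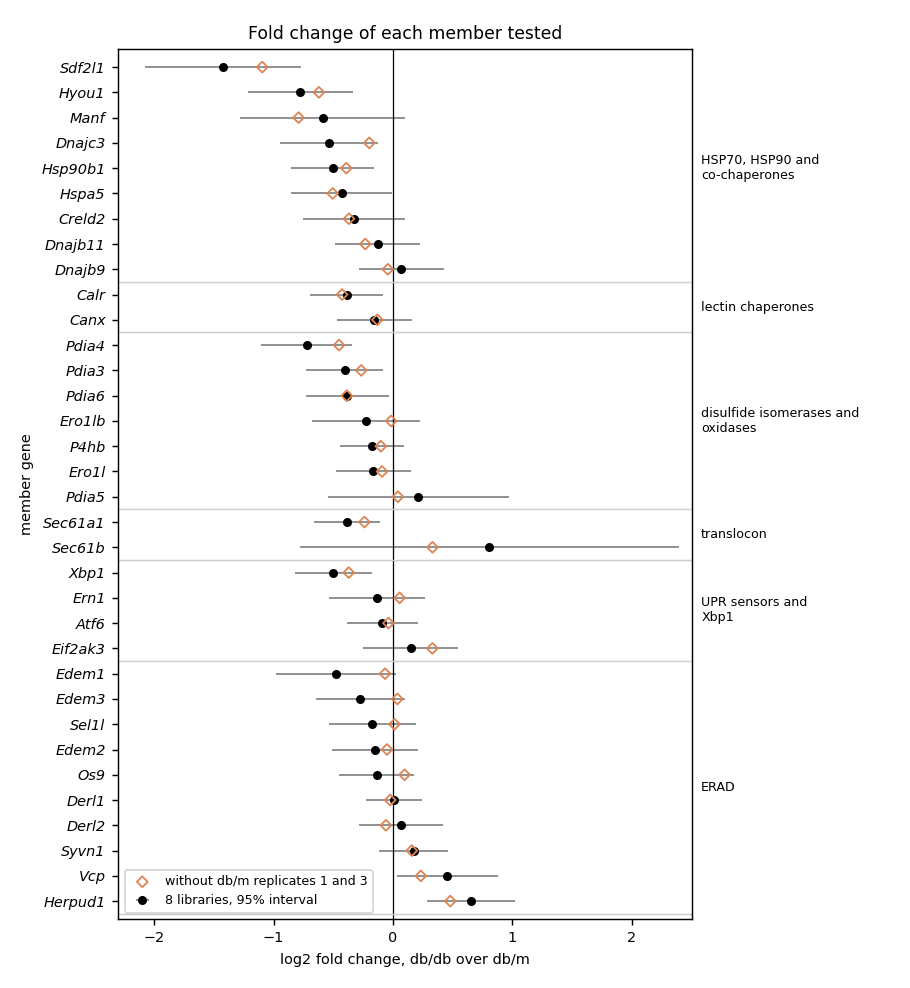
Log2 fold change (db/db over db/m) of each of the 34 members tested, with the 95% interval from 8 libraries, and open diamonds for the fit without db/m replicates 1 and 3. Intervals of Sdf2l1, Hyou1, Pdia4 and Herpud1 lie clear of 0, and those of the sensors and derlins span it.

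Members with an ERSE in the window were compared as a description. Of the 9 that were tested 8 were negative, 5 of them at an unadjusted p under 0.05, against 52.3% and 7.84% of all genes. Their median was -0.38, with a range of -0.54 (Dnajc3) to 0.17 (Syvn1). The 18 members with a window and neither ERSE nor ERSE-II had a median of -0.16 and a range of -1.42 to 0.81. Of these 12 were negative, and 4 were lower and 1 higher at an unadjusted p under 0.05. Sdf2l1 and Pdia4, among the lowest members, had neither set of letters in their windows. For Hyou1, also among the lowest, no window was held. Herpud1 and Dnajb11 with ERSE-II had 0.65 and -0.13.

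The lower chaperone values in db/db had a counterpart within the controls. Over the 34 members db/m replicate 4 was the lowest db/m library in 17 and the highest in 1. Markers of other cells varied among the db/m libraries too. Summed over 8 fibroblast markers, all detected, levels were 2191, 1101, 2032 and 1143 CPM in db/m replicates 1 to 4 and 1092 to 1564 in db/db. Summed over 9 B and plasma cell markers, cells rich in these chaperones, levels were 143, 24.99, 82.8 and 22.5 CPM in db/m and 13.9 to 51.8 in db/db. The marker Jchain had 12.4, 0.393, 6.37 and 0.285 CPM in db/m and 0.427 to 2.21 in db/db. The plasma cell receptor Tnfrsf17 had 0 to 0.207 CPM. In every library most of the B and plasma cell sum came from the marker Ighm. A link between the levels of the members and those of these markers was not tested. Some markers of vessels were lower in db/db as well. At an unadjusted p under 0.05, 3 of 7 endothelial and 2 of 7 smooth muscle and pericyte markers were lower and 0 higher. The shares over all genes were 7.84% lower and 5.12% higher. Summed endothelial markers had 1694 to 2084 CPM in db/m and 1406 to 1936 in db/db, and summed smooth muscle and pericyte markers 1984 to 2152 and 1797 to 2222. Acta2, smooth muscle actin, had 108 to 286 CPM in db/m and 35.1 to 64.995 in db/db. The endothelial receptors Tek (108 to 162 against 84.3 to 105) and Tie1 (143 to 166 against 114 to 142) were also lower in every db/db library. Other markers of these lists overlapped, among them Cdh5 (387 to 532 against 407 to 620) and Rgs5 (1168 to 1734 against 1485 to 1843). Of 10 cardiomyocyte markers 2 were higher in db/db and 0 lower at an unadjusted p under 0.05, against 5.12% and 7.84% of all genes. Tcap had 197 to 550 CPM in db/m and 1145 to 1425 in db/db. The summed cardiomyocyte markers overlapped, with 32770 to 39310 CPM in db/m and 34910 to 42070 in db/db. The part of cell types in the results was not tested.

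Pathways next to the members were described from 10 lists of 168 genes, of which 164 were tested. By edgeR with Benjamini-Hochberg adjustment 0 of these 164 passed, while 19 were lower and 9 higher at an unadjusted p under 0.05, against 7.84% and 5.12% of all genes, so that the count of higher genes was near the background. The median was -0.070. Without db/m replicates 1 and 3 it was -0.034, with 15 lower and 11 higher, against 5.04% and 5.63% of all genes. In the list of the oligosaccharyltransferase and N-glycan quality control, 13 of 17 were negative and 7 lower at an unadjusted p under 0.05, with 0 higher and a median of -0.21. Ganab, the glucosidase subunit that readies glycans for the lectin chaperones, had 71.9, 72.5, 88.8 and 66.1 CPM in db/m and 49.4, 55.7, 56.9 and 56.7 in db/db. All db/db libraries were lower, by -0.45 on the log2 scale (SE 0.13; edgeR, Benjamini-Hochberg adjusted p = 0.249). Magt1, a subunit of the transferase, had -0.52 (SE 0.15) and Lman1, a cargo receptor for glycoproteins, -0.30 (SE 0.10).

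The lists of other folding enzymes, translocon partners, other ERAD components and transport each held 1 or 2 genes lower and at most 1 higher, near the share over all genes, and are given as a description. Of 22 other folding enzymes 15 were negative, against 52.3% of all genes. At an unadjusted p under 0.05, 2 were lower (the thioredoxin-like Txndc11 at -0.37, SE 0.13, and Tmx1 at -0.38, SE 0.16). At that threshold 1 was higher (the sulfhydryl oxidase Qsox1 at 0.39, SE 0.16). Translocon partners had a median of -0.027 (0.016 without db/m replicates 1 and 3) and 1 of 19 lower, Ssr1 (-0.43, SE 0.17; -0.14 without both). Among 24 other ERAD components 1 was lower, Faf2 (-0.36, SE 0.12), and 1 higher, Ufd1 (0.40, SE 0.17), a cofactor of Vcp. Both bind Vcp, and their values were -0.23 and 0.25 without db/m replicates 1 and 3. Of 16 transport genes 1 was lower, the coat organiser Sec16a (-0.46, SE 0.19; -0.24 without both).

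Of 15 genes of procollagen folding tested 4 were lower and 1 higher at an unadjusted p under 0.05, against 7.84% and 5.12% of all genes. The median was -0.079. Serpinh1, the collagen chaperone HSP47, had 386, 331, 283 and 344 CPM in db/m and 189, 235, 181 and 239 in db/db. The groups were well apart, with a log2 fold change of -0.67 (SE 0.15; edgeR, Benjamini-Hochberg adjusted p = 0.170), and DESeq2 (adjusted p = 0.00381) and limma-voom (adjusted p = 0.0192) called it lower, as did edgeR without db/m replicate 3 (adjusted p = 0.0270). P4ha1, the catalytic partner of P4hb, had 57.2 to 75.7 CPM in db/m and 36.1 to 58.8 in db/db (-0.54, SE 0.17), while P3h4 had 0.52 (SE 0.13).

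The list of the PERK arm and integrated stress response also holds the other kinases of that response. Of its 18 genes 14 were positive, against 47.7% of all genes, and the median was 0.29. At an unadjusted p under 0.05, 3 were higher and 0 lower, against 5.12% and 7.84% of all genes. By edgeR 0 of the 18 passed an adjusted p of 0.05, and the difference from the chaperones was not tested. Trib3, a pseudokinase induced by this response, had 4.53, 5.25, 6.37 and 5.60 CPM in db/m and 7.86, 20.3, 6.96 and 10.9 in db/db (1.08, SE 0.32), without overlap. Chac1, a glutathione-degrading enzyme, had 2.32 to 3.42 and 2.30 to 13.9 CPM (1.21, SE 0.48), and Ppp1r15a, the phosphatase subunit that ends the response, 20.7 to 34.3 and 30.7 to 46.5 (0.52, SE 0.19). The db/db replicate 2, which also had the highest Herpud1, carried much of the first 2 changes, which were 0.66 and 0.55 without it.

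Regulators of ATF6 and IRE1 had a median of -0.049 (0.0048 without db/m replicates 1 and 3). At an unadjusted p under 0.05, 2 of 17 were lower and 1 higher, against 7.84% and 5.12% of all genes. Nfya, a subunit of the factor NF-Y that binds ERSE with ATF6, had -0.34 (SE 0.14), and Nfyc, another subunit, 0.37 (SE 0.16), a value that is uncertain because the pseudogene Gm9144 held 6006 counts against 3393, and which was 0.20 without both libraries. Creb3l2, a membrane-bound relative of ATF6, had -0.76 (SE 0.34), which was 0.0094 without both. Of 7 ER-phagy receptors 5 were negative, against 52.3% of all genes, with a median of -0.18. Without both libraries the median was 0.077, with 3 negative, against 49.6% of all genes. The next counts are from all libraries. At an unadjusted p under 0.05, 2 were higher and 1 lower, where 5.12% and 7.84% of all genes were. Retreg1, a receptor that sends ER membrane to autophagy, had 213, 262, 301 and 312 CPM in db/m and 542, 553, 477 and 504 in db/db, far apart. Its change of 0.93 (SE 0.15) missed the threshold in edgeR (Benjamini-Hochberg adjusted p = 0.102) and passed in DESeq2 (adjusted p = 2.26e-06) and limma-voom (adjusted p = 0.0133), and in edgeR without db/m replicate 3 (adjusted p = 0.0123). Calcoco1 had 0.42 (SE 0.13; 0.25 without db/m replicates 1 and 3). Ccpg1 was lower in every db/db library, with 0.704 to 2.56 CPM in db/m and 0.230 to 0.610 in db/db (-1.48, SE 0.53; -0.91 without db/m replicate 3). The Ccpg1 value is uncertain, because Pigb, on the opposite strand, overlaps 28.9% of its exon bases and held 1847 counts against 155. Gm44503, on the same strand, overlaps 42.9% of them and held 0 counts. Of 10 genes of the sarcoplasmic reticulum 5 were positive and 5 negative, against 47.7% and 52.3% of all genes. At an unadjusted p under 0.05, 0 were higher or lower, against 5.12% and 7.84%. Without db/m replicates 1 and 3, 7 of 10 were negative and 2 lower at an unadjusted p under 0.05, against 49.6% and 5.04%. Atp2a2, the calcium pump, went from -0.23 (SE 0.17) to -0.37 in that fit.

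**Figure D5:**
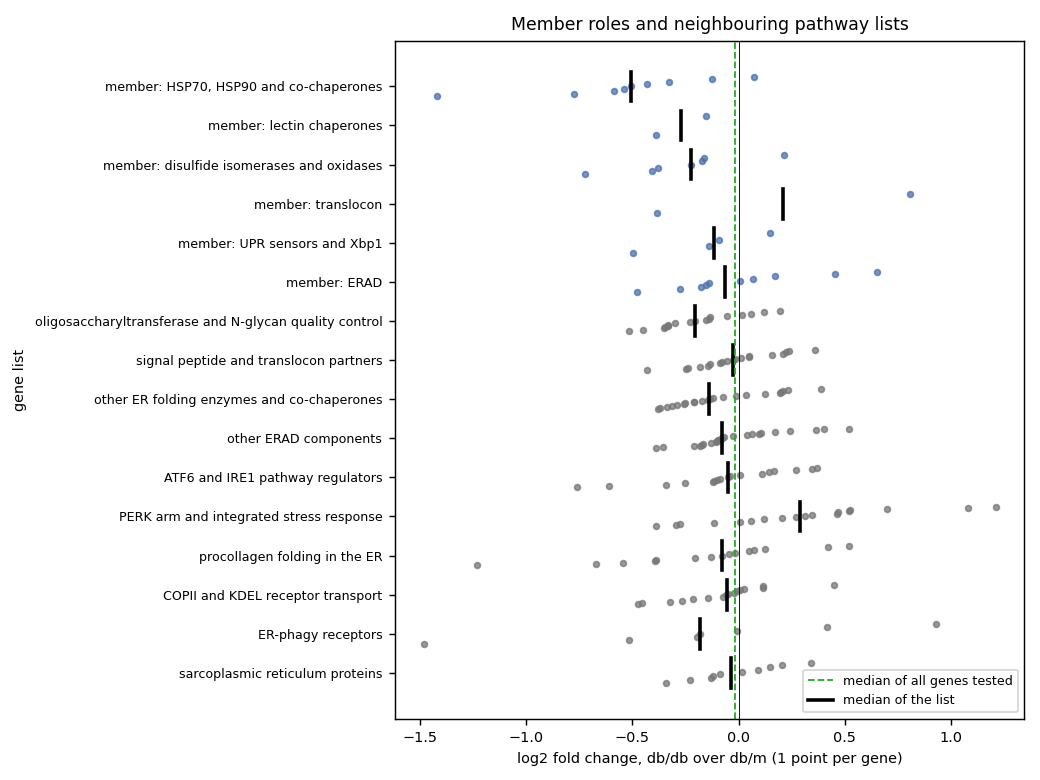
Log2 fold change (db/db over db/m) of each tested gene, by member role (blue) and by neighbouring list (grey), with black bars for list medians and a dashed line for the median of all genes, -0.019. The HSP70 and HSP90 row has its median at -0.51 and the PERK row at 0.29.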

How the data were processed

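RNA of 8 mouse heart libraries was sequenced by the authors, and the authors deposited raw counts for each Ensembl identifier, without normalisation or pooling, per the file headers and as the whole numbers in them show. Libraries were made from total RNA with the NEBNext Ultra kit, per the labels' protocols, and the genome build was mm10, per the submitters' processing notes. Aligner, counting tool, annotation release and use of strand: not given in the sources used here. Each of the 8 single-library files matched its column of the joint table, where a further column is the length of merged exons in bases. Symbols came from GENCODE M21 for 55394 of 55573 identifiers.

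Counts were filtered with filterByExpr (minimum count 10, total 15), scaled by TMM and tested with edgeR 4.0.16 in R 4.3.3 (quasi-likelihood, robust, two-sided, genotype as the single factor), with Benjamini-Hochberg adjustment over 17411 genes and a threshold of 0.05. Log levels used a prior count of 2. SE values and 95% intervals come from that test. Pseudogenes were matched with BLAST 2.17.0 (95% identity or more, covering 0.5 or more of the pseudogene). DESeq2 1.42.0, limma-voom with library quality weights (limma 3.58.1), other scalings and filters, a replicate block and left-out libraries were alternatives. Adding pseudogene counts and removing length trends were alternatives chosen after seeing the data. No pair of libraries of 1 genotype agreed within sampling noise (chi-square per degree of freedom of at least 14.0). Scripts were tested on simulated data. All members may be named, and from each of the 10 neighbouring lists up to 3 genes with the smallest p and the 1 with the highest level. Members, lists and these rules were chosen with earlier results of these data known.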

Additional observations from a re-analysis of the deposited data

Results flagged for a closer look

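In 4 of 70 groups of 4 libraries (35 members in each genotype) 1 library lay far from the other 3 by Dixon's test, and chance gives about 1 in 20. Sel1l had 206 CPM in db/m replicate 3 against 128 to 139 in the other db/m libraries. Derl2 had 19.7 CPM in the same library against 29.5 to 31.0. In db/db, Derl2 had 31.6 CPM in replicate 1 against 28.0 to 28.5, and Edem2 had 9.76 CPM in replicate 2 against 8.18 to 8.43.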

How the results depend on the processing

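The number of genes called over all genes, 1 in the fit as reported, was 377 by DESeq2, 130 by limma-voom, 27 with no filter, 5 with the replicate block, 46 with db/m replicates 1 and 3 left out together, 12 with length trends removed, and 0 to 106 with any 1 library left out. Members called numbered 0 in the fit as reported, 4 by DESeq2 and 0 to 1 with any 1 library left out, and 0 in the other alternatives. The count of positive members (8 to 9) and the median change (-0.23 to -0.14) moved little with any 1 library left out. Of 339 member values under alternatives other than a left-out library, 17 had the opposite sign, all in members whose interval included 0. By limma-voom these were Sel1l (0.0085), Derl1 (-0.0071), Derl2 (-0.045), Atf6 (0.0062) and Ern1 (0.0093). With db/m replicates 1 and 3 left out they were Dnajb9 (-0.043), Sel1l (0.012), Edem3 (0.037), Derl1 (-0.024), Derl2 (-0.059), Ern1 (0.055) and Os9 (0.097), and also Creb3l2 (0.0094), which is no member. With pseudogene counts added it was Derl1 (-0.077), and with length trends removed Dnajb9 (-0.0065), Derl1 (-0.025), Atf6 (0.060) and Ern1 (0.013). With any 1 library left out, values ran from -0.0043 to 0.35 for Pdia5, -0.24 to 0.0082 for Sel1l, -0.022 to 0.042 for Derl1, -0.058 to 0.14 for Derl2, -0.14 to 0.012 for Atf6 and -0.25 to 0.063 for Ern1. The cause of these changes was not tested. The deviations of same-numbered libraries correlated at -0.088 to 0.056, and the replicate block called 0 members. Pairing by replicate number was thus not seen, but so few libraries cannot exclude it. Derl3, with 2 to 9 counts per library, was too low to be tested.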
